A study of Homo sapiens with 4 samples.

Results

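The data described here were 10 genes of immune checkpoint and adenosine signaling in SKOV3, an established line of human ovarian cancer. They were taken by symbol from the authors' table of 19475 gene symbols, and for each symbol the RefSeq transcript with the highest mean level was used. All 10 were in the table. The libraries were 2 from cells on a tissue culture plate (TCP), placed at day 0 in the labels, and 2 from spheroids on polymer X, a coated polymer thin film on which the cells form spheroids, placed at day 8. All 4 libraries came from the same line, cultured with serum replacement according to the labels, whereas the methods of the study maintain SKOV3 with fetal bovine serum and use serum replacement for spheroids, which they dissociate at intervals. Substrate, culture time and possibly medium therefore cannot be told apart. The labels name no other cells in these cultures. The labels do not say whether the libraries of a group came from separate cultures, so p-values measure only the spread between these libraries.

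Immune checkpoints are ligand and receptor pairs that restrain T cells, natural killer cells and macrophages, and tumor cells often carry the ligands. The B7 family ligands PD-L1 (CD274) and PD-L2 (PDCD1LG2) bind PD-1. PVR (CD155) and NECTIN2 (CD112) bind receptors such as TIGIT, and NECTIN2 also binds PVRIG. Galectin-9 (LGALS9) binds TIM-3, and CD47 binds SIRPα on phagocytes. Enzymes restrain immune cells in another way. CD73 (NT5E) makes adenosine from AMP outside the cell, and IDO1 starts the conversion of tryptophan to kynurenine.

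The 10 genes did not move as a block. IDO1, NT5E and LGALS9 were called higher on polymer X, meaning that the limma adjusted p was under 0.05 and the log2 fold change reached 1 or more, and 0 of the 7 tested genes were called lower. CD276 and CD47 were higher and PVR was lower by smaller amounts, with adjusted p under 0.05. NECTIN2 lay at nearly the same level on both substrates, and the transcripts used for the ligands of PD-1 lay under 1 FPKM in every library. FPKM are sequenced tags scaled to transcript length and library size. Of the 10 genes, 7 reached the minimum level for testing, which was at least 1 FPKM in at least 2 of the libraries, and LGALS9 reached it through the polymer X libraries alone. Of 11964 tested genes, 10.7% were called higher and 9.45% lower by the same rule, 20.2% in all. By the adjusted p alone, 37.4% were higher and 43.6% lower, 81.0% in all. In each of the 7 tested genes the 2 groups did not overlap, as in 90.4% of all tested genes. Over all 10 genes, fitted with no filter on low values, the median log2 fold change was 0.35, against 0.01 over the 16883 symbols of that fit. Since the data are from bulk RNA, a change in the number of cells that express a gene and a change in RNA per cell cannot be told apart.

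**Figure D1:**
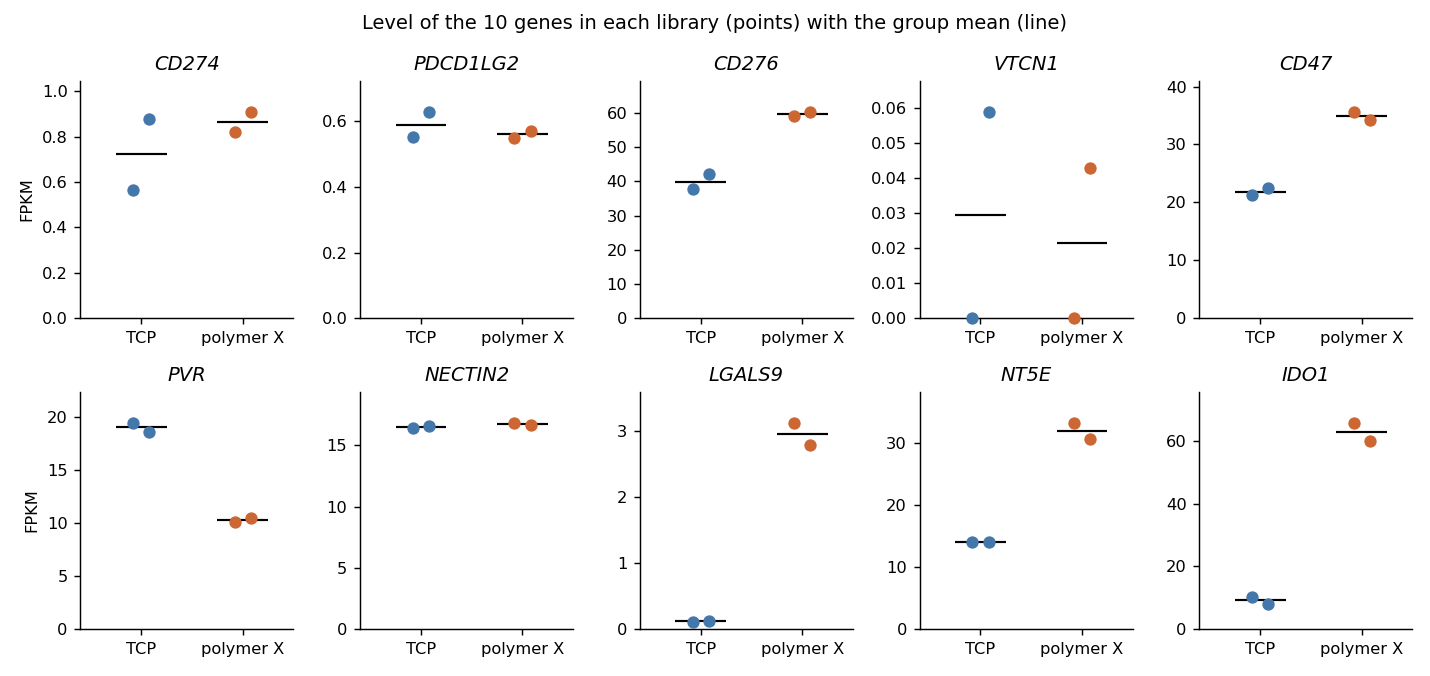
FPKM of the 10 genes (vertical axes, each from 0) in the 2 TCP and the 2 polymer X libraries, with 1 point per library and a line at the group mean. IDO1, NT5E, LGALS9, CD276 and CD47 lie higher in both polymer X libraries, PVR lies lower, and CD274, PDCD1LG2 and VTCN1 overlap between the groups.

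The promoter windows of CD274 and LGALS9 are shown because they hold the interferon-type motifs found among these genes. Each window runs from 250 bases before to 50 bases after the RefSeq start on GRCh38.p14, reading along the gene, and capitals mark matches on either strand to TTCNNNGAA (the core of STAT binding sites) or to the core of interferon-stimulated response elements, ISRE, which was searched as GAAA, any 2 bases and GAAA. The CD274 window (chr9:5450292-5450591, plus strand) held 1 match to the former and 2 to the latter, which overlap each other.

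CD274: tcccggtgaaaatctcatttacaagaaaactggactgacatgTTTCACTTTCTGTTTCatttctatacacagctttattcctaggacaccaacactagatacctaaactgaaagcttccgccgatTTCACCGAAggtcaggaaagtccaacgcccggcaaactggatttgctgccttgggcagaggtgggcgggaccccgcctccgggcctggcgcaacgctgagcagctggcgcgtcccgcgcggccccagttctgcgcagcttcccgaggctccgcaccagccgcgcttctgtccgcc

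LGALS9: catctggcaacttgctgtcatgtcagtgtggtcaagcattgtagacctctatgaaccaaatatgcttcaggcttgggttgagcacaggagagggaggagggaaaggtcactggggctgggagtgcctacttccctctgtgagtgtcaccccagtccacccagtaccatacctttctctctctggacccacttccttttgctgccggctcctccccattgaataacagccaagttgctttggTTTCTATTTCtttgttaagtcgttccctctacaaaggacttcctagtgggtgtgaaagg

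The LGALS9 window (chr17:27630938-27631237, plus strand) held 1 match to the ISRE core, close to the start. Among the 8 members with a RefSeq promoter entry, 2 held the ISRE core, 1 held TTCNNNGAA and 1, CD47, held ACGTG, the core of hypoxia response elements. Over all 35116 promoter windows of this length, the shares with a match were 3.57%, 7.66% and 21.4%. PDCD1LG2 and IDO1 were not among these entries.

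The B7 family ligands split by level. CD276 (B7-H3, a ligand reported to inhibit T cells) was abundant, whereas CD274, PDCD1LG2 and VTCN1 (B7-H4, also an inhibitory ligand) were scarce. CD276 (NM_025240, hg19 chromosome 15, 73976622 to 74006859) had 37.7 and 42.1 FPKM in the TCP libraries and 59.0 and 60.3 FPKM in the polymer X libraries. Both polymer X values lay above both TCP values. The mean rose from 39.9 ± 3.14 to 59.6 ± 0.866 FPKM (mean ± SD, n = 2 in each group, log2 fold change 0.57, standard error [SE] 0.06, limma adjusted p = 2.7e-05). Under quantile normalization the log2 fold change of CD276 was 0.89. The 4 CD276 transcripts had log2 differences between 0.54 and 0.58.

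The transcript rows used for PD-L1 and PD-L2 did not pass the minimum level. CD274 (NM_014143, hg19 chromosome 9, 5450503 to 5470567) had 0.567 and 0.878 FPKM on TCP, from 80 and 145 tags. On polymer X it had 0.822 and 0.909 FPKM, from 121 and 136 tags. TCP replicate 2 lay between the polymer X libraries, so the groups overlapped, and TCP replicate 1 was the lowest library. In the fit with no filter the log2 fold change of CD274 was 0.12, with a 95% interval from -0.14 to 0.38 and an adjusted p of 0.342 from limma, where 64.2% of all genes in that fit had an adjusted p under 0.05. The 3 CD274 rows did not move alike. The short row NM_001314029, of 901 bases, had 16 and 52 tags on TCP and 17 and 19 on polymer X, a log2 difference of -0.29. In this row TCP replicate 2 alone was high, at 1.285 FPKM. The long rows had differences of 0.12 and 0.16. PDCD1LG2 (NM_025239, hg19 chromosome 9, 5510545 to 5571282), which lies 39978 bases beyond CD274 on the same strand, had 0.551 and 0.628 FPKM on TCP and 0.550 and 0.571 on polymer X. Its groups overlapped, and its log2 fold change with no filter was -0.03 (95% interval from -0.14 to 0.09, limma adjusted p = 0.650). VTCN1 (NM_001253850, hg19 chromosome 1, 117686209 to 117753582) was listed at 0 in replicate 1 of both groups and had 6 tags in TCP replicate 2 and 4 in polymer X replicate 2. At this depth a change of VTCN1 was not detectable.

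CD47, the signal that restrains phagocytosis, was higher on polymer X. CD47 (NM_198793, hg19 chromosome 3, 107761941 to 107809935) had 21.2 and 22.5 FPKM on TCP and 35.6 and 34.1 on polymer X. The groups did not overlap. Its mean went from 21.9 ± 0.921 to 34.9 ± 1.03 FPKM (mean ± SD, n = 2 in each group, log2 fold change 0.65, SE 0.06, limma adjusted p = 5.5e-06). Both CD47 transcripts had a log2 difference of 0.65. Thrombospondin-1 (THBS1), a secreted ligand of CD47, was 1 of the 7 tested genes in a list of 9 modifiers and ligands of PD-L1 and CD47, and the only 1 of them to be called. Over all tested genes 20.2% were called. THBS1 reached the minimum level through TCP alone. It fell from 116 and 124 FPKM to 0.765 and 0.620 FPKM (log2 fold change -6.16, limma adjusted p = 6.1e-11). The receptor SIRPA itself had 7.87 and 8.45 FPKM on TCP and 7.71 and 7.53 on polymer X, with a log2 fold change of -0.09 (limma adjusted p = 0.249). CMTM6, which keeps PD-L1 at the cell surface, had 22.3 and 21.8 FPKM on TCP against 14.3 and 12.2 on polymer X (log2 fold change -0.70, limma adjusted p = 2.0e-05). CMTM4, in the same list, went the other way, from 10.1 and 11.3 FPKM to 13.6 and 13.6 (log2 fold change 0.32, limma adjusted p = 0.0019). By the limma adjusted p alone, 2 of the 7 tested genes of this list were higher and 5 lower, against 37.4% and 43.6% of all tested genes.

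The nectin-type ligands went separate ways. PVR (NM_001135770, hg19 chromosome 19, 45147098 to 45162362) had 19.5 and 18.6 FPKM on TCP and 10.1 and 10.5 on polymer X. The polymer X values lay below both TCP values. The mean of PVR fell from 19.0 ± 0.590 to 10.3 ± 0.322 FPKM (mean ± SD, n = 2 in each group, log2 fold change -0.83, SE 0.06, limma adjusted p = 1.3e-06). The row used ends upstream of the other 3 PVR rows, which extend to 45169428. In those the log2 difference was -0.55, and they had 15.4 to 16.1 FPKM on TCP and 10.2 to 10.8 on polymer X. NECTIN2 (NM_002856, hg19 chromosome 19, 45349393 to 45382198), on the same chromosome arm and strand, had 16.4 and 16.6 FPKM on TCP and 16.9 and 16.6 on polymer X. These levels differed by little, although the polymer X values were the higher ones. The log2 fold change of NECTIN2 was 0.02, with a 95% interval from -0.11 to 0.15 (limma adjusted p = 0.735). It was 0.19 with an adjusted p of 0.00975 from limma under quantile normalization, and with the transcripts summed it was -0.02. The second NECTIN2 row, NM_001042724, which extends to 45392485, had a mean of 11.9 FPKM on TCP and 11.2 on polymer X. Of 5 further nectins, nectin-like proteins and their anchor, 4 were tested. By the limma adjusted p alone, 1 of the 4 was higher and 3 lower, against 37.4% and 43.6% of all tested genes. NECTIN1 had 7.33 and 7.295 FPKM on TCP and 4.10 and 3.48 on polymer X (log2 fold change -0.80, limma adjusted p = 1.2e-05). NECTIN4, which was not tested, had 49 tags on TCP in all against 258 on polymer X. NECTIN3, an adhesion partner of PVR and NECTIN2, fell from 13.1 and 11.7 FPKM to 4.88 and 4.89 (log2 fold change -1.18, limma adjusted p = 4.1e-07). CADM1, a nectin-like adhesion molecule that reached the minimum level through polymer X alone, rose from 0.285 and 0.238 FPKM to 1.79 and 1.62 (log2 fold change 1.10, limma adjusted p = 2.0e-06). The scale of FPKM + 1 understates this change, and the ratio of the CADM1 means was 6.52. The nectin anchor AFDN, the most abundant gene of that list, had a log2 fold change of -0.21 (limma adjusted p = 0.0082).

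Galectin-9 mRNA was at a few tags per library on TCP and at many on polymer X. LGALS9 (NM_002308, hg19 chromosome 17, 25958174 to 25976586) had 0.110 and 0.121 FPKM on TCP, from 7 and 9 tags. On polymer X it had 3.12 and 2.79 FPKM, from 207 and 188 tags. The groups lay far apart, with a mean on polymer X of 2.96 ± 0.236 FPKM (SD, n = 2) against 0.116 ± 0.0078 (SD, n = 2). The ratio of the means was 25.6, with an exact 95% interval for counting error alone from 15.5 to 45.0. LGALS9 was tested only because the polymer X libraries reached the minimum level. The log2 fold change of LGALS9 on the scale of FPKM + 1, which understates the change of low genes, was 1.83 (SE 0.09, limma adjusted p = 7.3e-08). A pseudocount of 0.1 gave 3.82, and summing the transcripts gave 2.88. The 3 transcripts had log2 differences between 1.80 and 1.84. The near-identical copies LGALS9B and LGALS9C were listed at 0 in all 4 libraries, and how tags shared with them were assigned is not given in the sources used here.

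**Figure D2:**
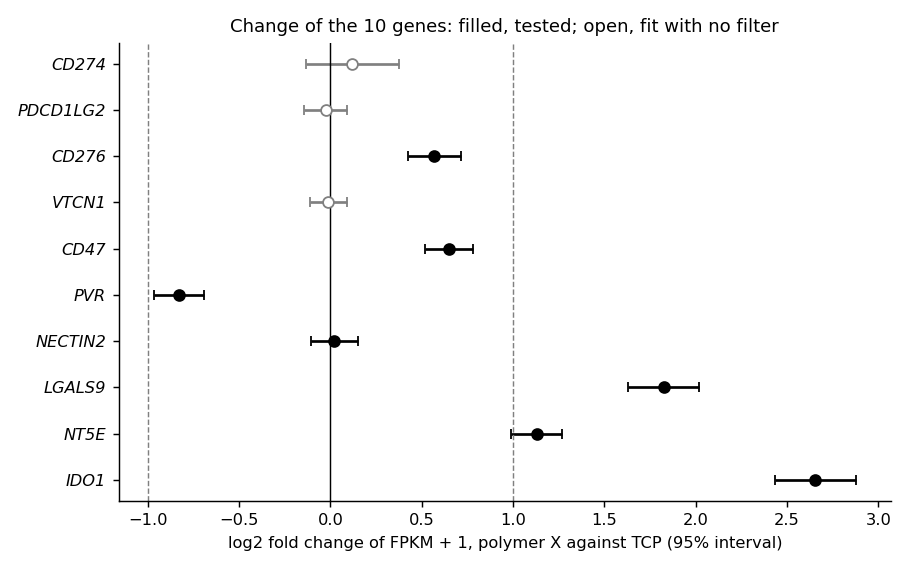
Log2 fold change of FPKM + 1 from TCP to polymer X (horizontal axis) for the 10 genes, with 95% intervals from limma. Filled points are the 7 tested genes, open points are CD274, PDCD1LG2 and VTCN1 in the fit with no filter, and dashed lines mark -1 and 1. IDO1, LGALS9 and NT5E lie beyond 1, and the interval of NT5E begins at 0.99.

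The other ligands of this kind were mostly too low to test. In a list of 14 further checkpoint ligands 4 were tested, of which 2 were called higher and 0 lower. Over all tested genes the shares were 10.7% and 9.45%. Galectin-3 (LGALS3), another galectin that binds T cell receptors, rose from 51.6 and 43.8 FPKM to 174 and 183 FPKM (log2 fold change 1.89, limma adjusted p = 3.5e-08). ICOSLG, the ligand of the costimulatory receptor ICOS, rose from 2.45 and 2.17 FPKM to 5.63 and 6.19 (log2 fold change 1.06, limma adjusted p = 1.7e-06). VSIR, which encodes the inhibitory ligand VISTA, had 2.63 and 2.92 FPKM on TCP and 0.870 and 1.17 on polymer X (log2 fold change -0.91, limma adjusted p = 1.6e-05). The most abundant row of the list, CD24, is placed by the table at a near-identical copy on another chromosome than the gene, so no level was read from it, although it counts among the 4 tested. CD86 and FGL1 were at 0 in all libraries. The rows of HLA-E and HLA-G are placed 7 times each in the table and lay under 0.3 FPKM throughout, so no level was read from them.

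CD73 mRNA more than doubled on polymer X. NT5E (NM_001204813, hg19 chromosome 6, 86159302 to 86205509) had 14.1 and 14.0 FPKM on TCP and 33.3 and 30.6 on polymer X. Both polymer X libraries lay far above the TCP libraries, which were nearly equal. The mean of NT5E rose from 14.0 ± 0.020 to 32.0 ± 1.92 FPKM (mean ± SD, n = 2 in each group), 2.28 times the TCP level (log2 fold change 1.13, SE 0.06, limma adjusted p = 1.9e-07). Both NT5E transcripts had a log2 difference of 1.13.

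Around NT5E, 19 genes of adenosine handling were listed, of which 11 were tested, 3 were called higher and 0 lower. Of those 3, ENTPD8 and DPP4 reached the minimum level through polymer X alone. The shares called over all tested genes were 10.7% higher and 9.45% lower. Over the 11 tested genes the median log2 fold change was -0.11, against -0.06 over all tested genes. ENTPD8, an ectonucleotidase that degrades ATP and ADP, was listed at 0 in TCP replicate 1 and had 0.201 FPKM in TCP replicate 2, against 3.39 and 3.95 FPKM on polymer X (log2 fold change 2.09, limma adjusted p = 1.5e-07). SLC29A2, an equilibrative nucleoside transporter, rose from 2.83 and 2.75 FPKM to 12.8 and 11.7 (log2 fold change 1.80, limma adjusted p = 2.5e-08). DPP4, a surface peptidase that binds adenosine deaminase, rose from 0.229 and 0.115 FPKM to 2.16 and 2.35 (log2 fold change 1.47, limma adjusted p = 4.1e-07). The scale of FPKM + 1 understates the change of ENTPD8 and DPP4, which were low on TCP. By the ratio of means the rise was 36.5 times for ENTPD8, 13.1 for DPP4 and 4.39 for SLC29A2.

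Unlike ENTPD8, the better known ectonucleotidase upstream of CD73 was not called. CD39 (ENTPD1), which makes the AMP that CD73 uses, had 1.69 and 1.52 FPKM on TCP and 1.14 and 1.00 on polymer X (log2 fold change -0.33, limma adjusted p = 0.0054). Adenosine deaminase (ADA) had 9.90 and 9.49 FPKM on TCP and 5.21 and 4.32 on polymer X (log2 fold change -0.90, limma adjusted p = 7.2e-06). Adenosine kinase (ADK), which returns adenosine to AMP inside the cell, had a log2 fold change of -0.62 (limma adjusted p = 1.2e-05). Both enzymes that consume adenosine thus lay lower on polymer X by less than the fold minimum. The adenosine receptor gene ADORA2B had 2.10 and 1.63 FPKM on TCP and 3.21 and 2.73 on polymer X (log2 fold change 0.47, limma adjusted p = 0.0020). ADORA2A had a log2 fold change of -0.11 (limma adjusted p = 0.228), and ADORA3 was at 0 in all libraries. The transporter SLC29A1, the most abundant gene of the list, had a log2 fold change of -0.13 (limma adjusted p = 0.096).

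IDO1 had the largest change of the 10 genes on the scale of log2(FPKM + 1), whereas by the ratio of means LGALS9 did. IDO1 (NM_002164, hg19 chromosome 8, 39771328 to 39786309) had 10.4 and 8.10 FPKM on TCP and 66.0 and 60.2 on polymer X. The lowest polymer X library was far above the highest TCP library. The mean rose from 9.23 ± 1.60 to 63.1 ± 4.11 FPKM (mean ± SD, n = 2 in each group), 6.84 times the TCP level (log2 fold change 2.66, SE 0.10, limma adjusted p = 1.7e-08). Leaving out each library in turn gave 2.50 to 2.82. The level of IDO1 moved from percentile 70.5 of all gene symbols on TCP to percentile 96.7 on polymer X. The 3 tested genes nearest to IDO1 in pattern, by Euclidean distance of centred log2(FPKM + 1) over the 4 libraries, were FIBCD1, MMP10 and TRIM22, at distances of 0.139, 0.140 and 0.141. All 3 lay under 1 FPKM on TCP, at 0.174 to 0.835, and reached the minimum level through polymer X alone. Their nearness depends on the scale of FPKM + 1, which understates the change of low genes.

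Of 15 listed genes of tryptophan and kynurenine handling, 13 were tested, 4 were called higher and 1 lower. The shares over all tested genes were 10.7% and 9.45%. Over those 13 the median log2 fold change was 0.35, against -0.06 over all tested genes. IDO2, the paralog of IDO1, starts 6165 bases beyond it on the same strand and was the only gene within 200 kb of IDO1 that was tested. It reached the minimum level through polymer X alone. IDO2 rose from 0.046 and 0.224 FPKM to 2.39 and 2.27 (log2 fold change 1.56, limma adjusted p = 5.0e-07). The scale of FPKM + 1 understates this change, and the ratio of the IDO2 means was 17.3. Kynureninase (KYNU), which cleaves kynurenine, rose from 3.52 and 4.22 FPKM to 15.4 and 14.5 (log2 fold change 1.72, limma adjusted p = 8.3e-08). The aryl hydrocarbon receptor (AHR), which kynurenine can activate, rose from 4.03 and 3.90 FPKM to 15.2 and 12.9 (log2 fold change 1.60, limma adjusted p = 1.4e-07). CYP1B1, a classical target of that receptor, rose from 3.48 and 3.69 FPKM to 32.3 and 32.2 (log2 fold change 2.86, limma adjusted p = 1.2e-09). SLC7A5, the light chain of the transporter that brings tryptophan into the cell, fell from 96.8 and 101 FPKM to 44.5 and 52.3 (log2 fold change -1.02, limma adjusted p = 1.6e-06). Its partner SLC3A2, the most abundant gene of the list, had 160 and 159 FPKM on TCP and 104 and 100.2 on polymer X (log2 fold change -0.63, limma adjusted p = 4.5e-06). KYNU, AHR and CYP1B1 thus lay higher on polymer X, while both genes of tryptophan uptake lay lower.

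**Figure D3:**
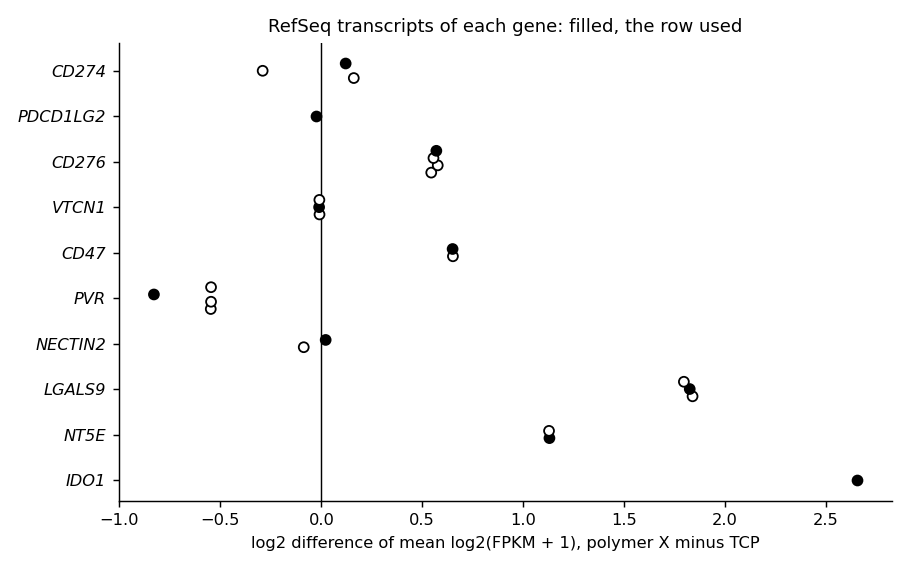
Log2 difference of mean log2(FPKM + 1), polymer X minus TCP (horizontal axis), for the 25 RefSeq transcripts of the 10 genes, with the row used filled. Transcripts of NT5E, CD47, CD276 and LGALS9 nearly coincide, whereas those of PVR lie between -0.83 and -0.55 and those of CD274 between -0.29 and 0.16.

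Interferon signaling through STAT and IRF factors is the best known inducer of CD274 and IDO1, and the genes of that route were listed with HIF1A and MYC. All 15 of these regulators were tested, of which 3 were called higher and 1 lower, with a median log2 fold change of 0.31. Over all tested genes 10.7% were called higher and 9.45% lower, and the median was -0.06. IRF9 and STAT2, transcription factors of type I interferon signaling, rose with log2 fold changes of 2.12 (adjusted p = 4.7e-09) and 1.85 (adjusted p = 1.1e-08, both from limma). NLRC5, which activates MHC class I genes, rose from 5.46 and 5.01 FPKM to 14.1 and 16.1 (log2 fold change 1.37, limma adjusted p = 2.7e-07). IRF1, the factor through which interferon gamma acts on CD274, had 8.07 and 8.15 FPKM on TCP and 7.47 and 6.37 on polymer X (log2 fold change -0.21, limma adjusted p = 0.037). MYC fell from 19.7 and 20.4 FPKM to 1.99 and 2.16 (log2 fold change -2.77, limma adjusted p = 2.1e-09). HIF1A, the most abundant regulator of the list, had a log2 fold change of -0.71 (limma adjusted p = 8.5e-06).

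**Figure D4:**
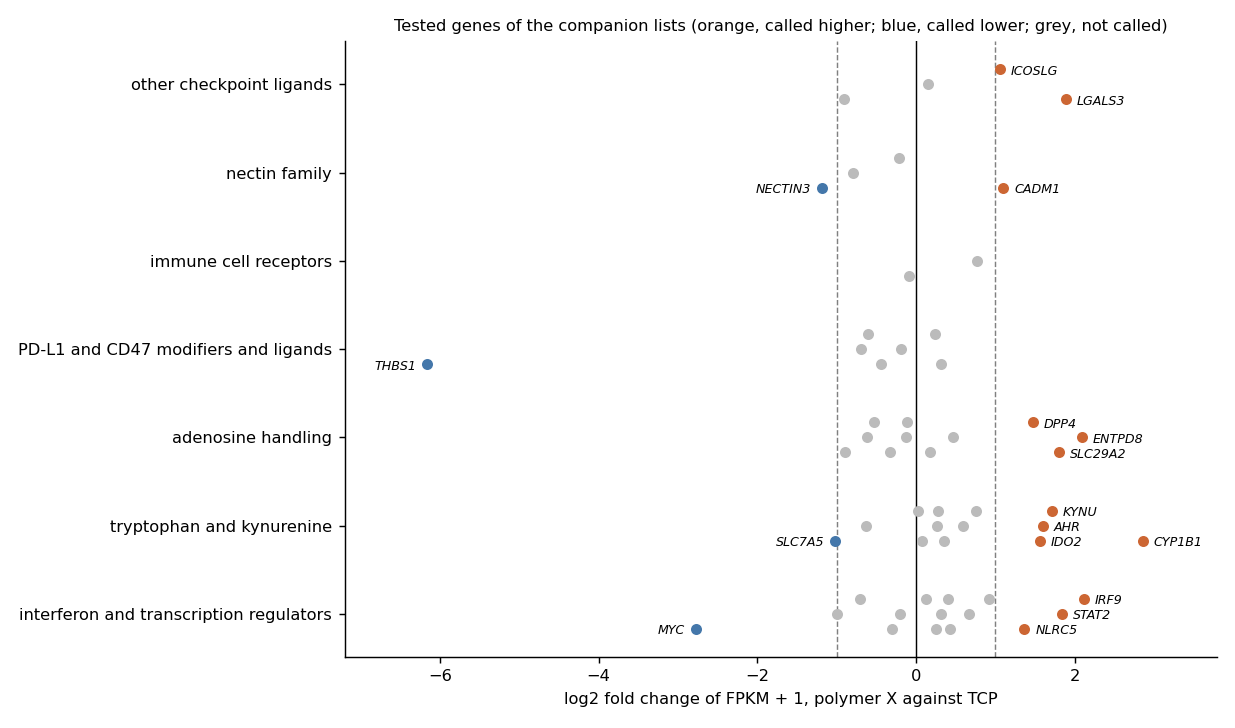
Log2 fold change of FPKM + 1 from TCP to polymer X (horizontal axis) for the 56 tested genes of the 7 companion lists (rows), with 1 point per gene and dashed lines at -1 and 1. In all, 13 genes were called higher (orange) and 4 lower (blue), and the 39 grey points were not called. These shares were 23.2% higher and 7.14% lower, against 10.7% and 9.45% over all tested genes. Of the genes called higher, ENTPD8, DPP4, CADM1 and IDO2 reached the minimum level through polymer X alone. THBS1, called lower, reached it through TCP alone. The lists were chosen with earlier results of these data known, so the difference between these shares was not read as a result.

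Most receptors for these ligands were scarce, apart from SIRPA. Of 13 receptors, 11 stayed under the minimum level and 2 were tested. By limma at the fold minimum 0 were called, against 20.2% of all tested genes. By the adjusted p alone 1 passed, against 81.0% of all tested genes, and 1 was called with a pseudocount of 0.1. That gene, PVRIG, a receptor of NECTIN2 that reached the minimum level through polymer X alone, had 0.601 and 0.485 FPKM on TCP and 1.81 and 1.45 on polymer X (log2 fold change 0.77, limma adjusted p = 5.7e-05). The PD-1 gene PDCD1 was at 0 in all libraries. Of 11 leukocyte markers, 0 were tested, and CD3D, CD3E and MS4A1 were at 0 throughout. Their summed level was 0.230 to 0.246 FPKM on TCP and 1.18 to 1.30 on polymer X. In this sum PTPRC had 0.005 and 0 FPKM on TCP and 0.468 and 0.530 on polymer X. The sum of 6 fibroblast markers was 16.9 to 17.6 FPKM on TCP and 52.9 to 58.2 on polymer X, with COL1A2 and DCN called higher, and DCN tested through polymer X alone. In the same list COL1A1 had 8.21 and 8.48 FPKM on TCP and 3.81 and 3.77 on polymer X (log2 fold change -0.96, limma adjusted p = 9.3e-07), and THY1 had 28 tags on TCP in all against 4. The sum of 4 endothelial markers was under 1 FPKM in each library, and its genes moved apart. PECAM1 had 0 tags on TCP in all against 185 on polymer X, and KDR had 220 against 76. VWF and CDH5 had at most 16 tags in a group. The part of these markers in the changes of the 10 genes was not tested. The epithelial markers KRT8, KRT18, ERBB2 and PAX8 lay above 40 FPKM in all libraries, whereas WT1, EPCAM and CDH1 lay under 2 FPKM. These markers moved apart. ERBB2, PAX8, MUC1 and EPCAM were called higher, EPCAM tested through polymer X alone, and ERBB2 had 198 and 206 FPKM on TCP and 913 and 860.4 on polymer X. KRT8 had 262 and 269 FPKM on TCP and 146 and 143 on polymer X (log2 fold change -0.87, limma adjusted p = 6.4e-07), and KRT18 and KRT7 had log2 fold changes of -0.44 and -0.76. Their part in the changes of the 10 genes was not tested.

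Ordered by FPKM, the 10 genes ranked differently on the 2 substrates. On TCP the order was CD276, CD47, PVR, NECTIN2, NT5E, IDO1, CD274, PDCD1LG2, LGALS9 and VTCN1, and CD274 and PDCD1LG2 overlapped. With another PVR row, PVR would stand after NECTIN2. On polymer X the order began with IDO1 and CD276, whose libraries overlapped, followed by CD47, NT5E, NECTIN2, PVR, LGALS9, CD274, PDCD1LG2 and VTCN1. IDO1 moved from place 6 to place 1, NT5E from 5 to 4 and PVR from 3 to 6. The genes next to the members did not share 1 direction. PLGRKT, 12566 bases from CD274, had a log2 fold change of -0.73, and SYNCRIP, 111993 bases from NT5E, had -1.25 and was called lower. TOMM40, 1992 bases beyond NECTIN2, was called lower at -1.80, and APOE, 16521 bases beyond it, was called higher at 2.11. No member had a gene row of another symbol that overlapped it, in either orientation.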

How the data were processed

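RNA-seq was measured in 4 libraries. The authors deposited FPKM per RefSeq transcript, made with HOMER on hg19 from tags on exons of both strands, and rounded to 3 decimals. The submitters' processing notes also name STAR 2.4.0 and DESeq. The file header lists 4 further libraries, which were not analysed here. Coordinates of genes are those of the table, and promoters are RefSeq on GRCh38.p14.

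FPKM times transcript length fell on whole multiples of 1 step per library, which put the total tags at 38401000 and 44914000 for TCP and 40033000 and 40682000 for polymer X. At a length of 2000 bases, 3 tags were 0.033 to 0.039 FPKM. Tag counts and intervals cover counting error only. Between 57.2% and 64.0% of low tag counts were even, so some tags may be mates of a pair, and these intervals may then be too narrow. Tags shared by genes on opposite strands or by transcripts cannot be separated.

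Genes with FPKM of 1 or more in 2 or more libraries were fitted on log2(FPKM + 1) by limma 3.58.1 (R 4.3.3) with a variance trend, adjusted by Benjamini-Hochberg over the whole table. An exact permutation test of 2 against 2 cannot go below p = 0.333, so each p rests on the spread shared across genes. Simulated data of this comparison held 11156 tested genes, of which 200 were changed by a log2 fold of 1.5. The procedure called 187 of these 200 in the right direction, and 0 of the 10956 unchanged ones. Changed genes were drawn only from genes above the minimum level on TCP, and the simulated spread between replicates was preset. Genes low on TCP, such as LGALS9, were thus not covered. With that spread an unchanged gene was unlikely to reach the fold minimum. In the real data 81.0% of all tested genes passed by the adjusted p alone. How the procedure performs with that large a share was not tested. Replicates differed by more than counting error (mean chi-square per gene 5.45 and 6.41). Alternatives were another pseudocount, filter, scaling, block, variance trend or fold minimum, summed transcripts, and each library left out.

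The members and lists were chosen with earlier results of these data known. Text names all members, up to 4 called genes per direction and list, the most abundant gene of each list, and the 3 genes nearest in pattern to the member with the largest rise in log2(FPKM + 1), IDO1 (by the ratio of means or a pseudocount of 0.1 it would be LGALS9). SIRPA, CMTM6, CMTM4, NECTIN1, NECTIN4, ENTPD1, ADA, ADK, ADORA2A, ADORA2B, PVRIG, IRF1, VSIR, other genes at 0, markers, neighbours and the genes of the closing section were chosen after their values were seen. Not every listed gene is named, and 1 result is not reported here. Plots used matplotlib 3.10.9.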

Additional observations from a re-analysis of the deposited data

How the results depend on the processing

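Of 136 values recomputed with every library kept (the log2 fold changes of the 7 tested members, the counts of members called, and the counts for the 7 lists), 120 kept their direction and side of the threshold, or stayed within 1.5 times for counts. All 64 with 1 library left out did so. Without a fold change minimum, 5 of the 7 tested members were higher and 1 lower. By that rule 37.4% of all tested genes were higher and 43.6% lower, 81.0% in all. The genes called numbered 4 of 4 tested for other checkpoint ligands (2 with the minimum), 4 of 4 for the nectin family (2) and 1 of 2 for immune cell receptors (0). For modifiers and ligands of PD-L1 and CD47 they numbered 7 of 7 (1), and for adenosine handling 9 of 11 (3). For tryptophan and kynurenine they numbered 11 of 13 (5), and for regulators 14 of 15 (4). When genes needed a mean FPKM of 5 or more, a fit with fewer genes and without LGALS9, 1 gene was called for each of other checkpoint ligands, the nectin family and adenosine handling. The nectin family had 1 call under quantile normalization, and immune cell receptors had 1 with a pseudocount of 0.1. The log2 fold change of NECTIN2 was 0.19 under quantile normalization and -0.024 with the transcripts summed. The cause was not tested.

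With 1 library left out in turn, with the lone library assumed to vary like the other group, the log2 fold change was 0.49 to 0.65 for CD276, 0.61 to 0.69 for CD47, -0.86 to -0.80 for PVR, 0.012 to 0.031 for NECTIN2, 1.76 to 1.89 for LGALS9, 1.07 to 1.19 for NT5E and 2.50 to 2.82 for IDO1, and 3 members stayed called higher.

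With the replicate number as a block, 3 members were higher and 0 lower, and no call of a member or a list count changed. The correlation between deviations of libraries that carry the same number was 0.093 (11964 genes), and no pairing was assumed. Depth limits VTCN1, with at most 6 tags in a library.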

Other observations

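Some genes of the companion lists stayed under the minimum level but differed in tags. CTLA4, a receptor of T cells that restrains costimulation, had 0.476 and 0.227 FPKM on TCP and 0 and 0.040 on polymer X, or 53 tags in the TCP libraries together against 3. TNFRSF14, the ligand of the inhibitory receptor BTLA, had 0.037 and 0.032 FPKM on TCP and 0.394 and 0.606 on polymer X, or 10 tags against 141. ENTPD2, a further ectonucleotidase, had 0.10 and 0.149 FPKM on TCP and 0.933 and 0.906 on polymer X, or 22 tags against 155. CYP1A1, a target of the aryl hydrocarbon receptor like CYP1B1, was listed at 0 and had 0.067 FPKM on TCP and 0.346 and 0.717 on polymer X, or 8 tags against 115. These genes had no test at the minimum level used.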
